A study of Mus musculus with 23 samples.

Results

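The CCN proteins and the YAP/TAZ pathway were followed at the RNA level in 23 libraries made from GL261 and CT2A, which are mouse glioma lines. The 10 genes were chosen by name, with their levels over the 6 groups of libraries already known, and make up 10 of the 35576 genes with summed reads. They are the 6 CCN genes Ccn1 (older symbol Cyr61), Ccn2 (Ctgf), Ccn3 (Nov), Ccn4 (Wisp1), Ccn5 (Wisp2) and Ccn6 (Wisp3), together with Yap1, Wwtr1 (the gene of TAZ), Tead1 and Ankrd1. Because the genes were chosen with these levels in view, their levels and fold changes are given as a description and without p-values.

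All libraries came from tumors grown in the right striatum of female albino C57BL/6 mice 7 to 10 weeks old. Bulk tumors were grown from luciferase-transduced lines, with 100000 GL261-luc2 or 25000 CT2A-luc cells implanted (n = 4 tumors each), were taken on day 22 to 24 and were read as pairs of 150 bases. Sorted cells came from sublines of the same luciferase-transduced lines, of which 200000 cells were implanted. The sorted cells were pulled from dissociated tumors with beads that select the implanted cells, and were read as pairs of 37 bases. The sublines had been kept either as adherent cultures (GL261, n = 4; CT2A, n = 3) or as neurospheres (GL261, n = 3; CT2A, n = 5) before implantation. The titles of the 5 CT2A neurosphere libraries name GL261, but the cell line field and the description say CT2A, which was followed here. Each group rests on 1 line or subline, so the groups differ by more than the name of the line. Bulk and sorted libraries differ in subline, cell number, sort, read length and sequencer, which cannot be told apart, so no test was made between them and their values stand side by side.

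CCN proteins are secreted, cysteine-rich proteins that sit in the extracellular matrix and bind integrins, syndecans and LRP receptors. YAP, encoded by Yap1, and its paralog TAZ, encoded by Wwtr1, are coactivators that enter the nucleus when the Hippo kinases are inactive and act through the DNA-binding TEAD factors. Ccn1, Ccn2 and Ankrd1 are the customary transcriptional readouts of YAP and TAZ, Ccn4 was first described as a gene induced by WNT1, and Ccn5 lacks the carboxy-terminal domain that its relatives carry. Ccn3 is often expressed where Ccn2 is not, and Ccn6 is known chiefly from cartilage. In glioma, TAZ in particular has been tied to a mesenchymal expression program.

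The 250 bases before the transcription start of Ccn1, Ankrd1, Wwtr1 and Yap1 are shown because these 4 are the readouts and the coactivators of the pathway, and because each holds the short core that TEAD factors are known to bind. RefSeq promoter sequences of GRCm38.p6, the build that the deposited tables use, were at hand for 5 of the 10 genes, Ccn6 being the other. Capitals mark the TEAD core GGAATG, searched on both strands, and all sequences run 5′ to 3′ toward the gene.
Ccn1, chr3:145649986-145650235, minus strand: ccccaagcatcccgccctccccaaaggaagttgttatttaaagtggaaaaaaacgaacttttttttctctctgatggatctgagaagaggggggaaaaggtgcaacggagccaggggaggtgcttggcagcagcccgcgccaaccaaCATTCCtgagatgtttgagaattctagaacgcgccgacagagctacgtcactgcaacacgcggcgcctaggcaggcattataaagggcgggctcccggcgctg
Ankrd1, chr19:36119845-36120094, minus strand: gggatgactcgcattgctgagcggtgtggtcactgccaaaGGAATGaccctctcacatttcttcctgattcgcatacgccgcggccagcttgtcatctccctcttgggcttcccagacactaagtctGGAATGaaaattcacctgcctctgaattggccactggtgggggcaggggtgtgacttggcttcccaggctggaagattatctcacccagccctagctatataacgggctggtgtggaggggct
Wwtr1, chr3:57575911-57576160, minus strand: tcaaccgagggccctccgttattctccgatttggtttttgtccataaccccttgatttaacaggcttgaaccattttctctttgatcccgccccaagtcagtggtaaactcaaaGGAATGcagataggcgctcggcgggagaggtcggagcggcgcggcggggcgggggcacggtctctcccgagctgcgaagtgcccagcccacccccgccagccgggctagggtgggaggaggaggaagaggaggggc
Yap1, chr9:8004597-8004846, minus strand: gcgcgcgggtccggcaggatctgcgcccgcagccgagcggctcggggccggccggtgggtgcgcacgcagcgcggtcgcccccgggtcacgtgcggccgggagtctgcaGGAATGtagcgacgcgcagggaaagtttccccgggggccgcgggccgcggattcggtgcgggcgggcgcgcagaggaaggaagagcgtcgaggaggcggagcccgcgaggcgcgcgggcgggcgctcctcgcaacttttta

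The core stood 103 bases before the start of Ccn1, in reverse orientation, and 136 bases before the start of Wwtr1 that is shown. Counted from another RefSeq start of Wwtr1, the same core stood at 170 bases. Ankrd1 held 2 copies, at 210 and 123 bases before its start, and Yap1 held 1 copy at 141 bases. The Ankrd1 window lies before 1 RefSeq start but inside the gene as the GENCODE annotation draws it, whose outermost start is at 36120099 on chromosome 19. The Ccn6 window held none. Of all 32851 promoter windows of this length, 12.6% held the core on either strand, so a match by itself is common. The AP-1 motif TGANTCA, present in 6.75% of windows, and the CArG box, present in 1.47%, matched none of the 5 genes. The matches are letters in a sequence and no binding was measured.

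Levels are TMM-normalized read counts scaled to library size (CPM), and levels of different genes are compared only as TPM, which is scaled to transcript length. Log2 fold changes come from edgeR quasi-likelihood fits and give CT2A relative to GL261 unless stated, each with its standard error (SE). A gene is called past the threshold at a Benjamini-Hochberg adjusted p under 0.05 over all genes of that comparison. GL261 bulk libraries held 34622622 to 42608400 reads and the other 19 libraries 7395846 to 15263587, so low levels are least well resolved outside the GL261 bulk tumors. GL261 sorted library 81 stood apart from the other 3 of its group, with a summed macrophage and microglia marker level of 164 CPM against 483 to 923 and a summed immediate early gene level of 4673 CPM against 2313 to 2849. For several values that it moves, the value without it is also given.

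Of 9 members tested between the lines, CT2A bulk tumors had 5 higher and 0 lower, where 11.4% of all 16434 genes tested were called higher and 11.9% lower. By edgeR at an unadjusted p under 0.05 the bulk count was 6 in either direction, and by DESeq2 it was 5. In sorted cells of adherent lines, 4 members were higher and 1 was lower, against 24% and 26.8% of 13789 genes. In neurosphere-derived cells, 7 were higher and 1 was lower, against 30.0% and 29.6% of 13733 genes. Since the members were selected on these values, nothing is read from the counts. How many of all genes had groups without overlap was not counted, so overlap of members is given as a description. Ccn6 passed the minimum count in no comparison and was not tested.

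Ccn4, a secreted CCN protein tied to WNT signaling, separated the lines further than any other member. GL261 bulk tumors held 0.852, 0.848, 1.69 and 2.35 CPM of Ccn4 and CT2A bulk tumors 192, 210, 122 and 120 CPM. In sorted cells the 4 GL261 libraries held 0, 0.300, 0.621 and 0.470 CPM and the 3 CT2A libraries 367, 406 and 380 CPM. Neurosphere-derived GL261 cells held 0.243, 0.115 and 1.46 CPM and neurosphere-derived CT2A cells 270, 329, 103, 274 and 372 CPM. In bulk tumors, fewer cells of a type and less RNA per cell cannot be told apart. The lines did not overlap in any of these settings, and the lowest CT2A library stood far above the highest GL261 library.

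The fitted log2 fold change of Ccn4 was 6.89 (SE 0.47) in bulk tumors, 10.02 (SE 0.38) in sorted cells and 8.74 (SE 0.72) in neurosphere-derived cells. Very few reads lie behind the GL261 side of the sorted comparisons. The 4 sorted GL261 libraries held 0, 3, 5 and 5 reads of Ccn4, and the 3 neurosphere-derived ones 2, 1 and 12. Summed over libraries, 13 reads in GL261 stood against 9998 in CT2A sorted cells, a ratio of 1087 per depth with an exact 95% interval of 635 to 2041. In neurosphere-derived cells 15 reads stood against 14361, a ratio of 403 with an interval of 244 to 721, and in bulk tumors 224 reads against 6930, a ratio of 121 with an interval of 106 to 139. These intervals cover counting error only. Without GL261 sorted library 81, which held 0 reads, the fitted value in sorted cells was 9.625. Without GL261 neurosphere library 91, which held 12 of the 15 reads, the fitted value in neurosphere-derived cells rose to 10.43. That library also had the highest summed level of fibroblast and meningeal markers in its group, 303 CPM against 69.7 and 98.7 CPM, and its part in the result was not tested. In the CT2A groups 97.2 to 99.5% of the Ccn4 reads were assigned to the 5097-base transcript.

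Ccn5 followed the same order at lower levels. In bulk tumors it stood at 1.39, 2.24, 0.807 and 0.669 CPM in GL261 and at 6.70, 13.0, 14.0 and 28.1 CPM in CT2A. In sorted cells GL261 held 0.108, 0.10, 0.124 and 0.188 CPM, which is 1 or 2 reads a library, and CT2A held 18.1, 16.5 and 4.44 CPM. In neurosphere-derived cells GL261 held 0.121, 0.461 and 0.122 CPM and CT2A 11.2, 8.56, 5.27, 13.3 and 10.9 CPM. The lines again did not overlap, with log2 fold changes of 3.67 (SE 0.53), 6.44 (SE 0.64) and 5.26 (SE 0.54). From summed reads the CT2A level was 93.3 times that of GL261 in sorted cells, with an exact 95% interval of 39.6 to 289, on 5 GL261 reads. In neurosphere-derived cells it was 37.5 times, with an interval of 17.1 to 103, on 6 GL261 reads. Without GL261 neurosphere library 90, which held 4 of these 6, the fitted value was 6.16.

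**Figure D1:**
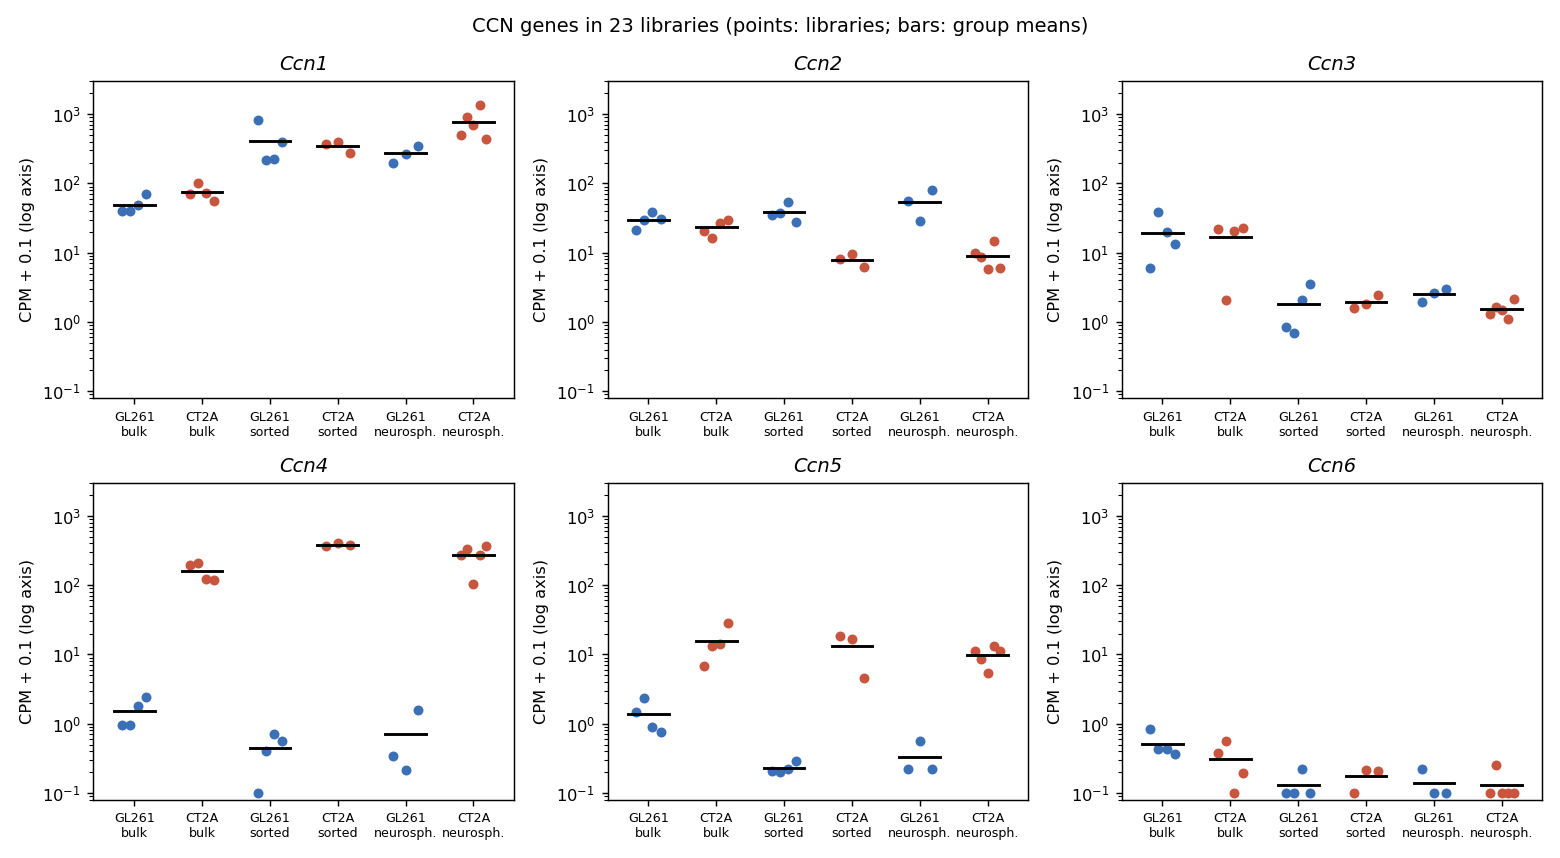
Levels of the 6 CCN genes in 23 libraries, in CPM + 0.1 on a log axis, with GL261 in blue and CT2A in red; each point is 1 library and each bar the group mean. Ccn4 and Ccn5 separate the lines in all 3 settings, Ccn2 separates them in sorted and neurosphere-derived cells, and Ccn6 stays below 1 CPM in every library.

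Ccn2, a matrix protein and a customary YAP/TAZ readout, ran the other way in the bead-selected cells. Sorted GL261 cells held 34.4, 37.1, 53.3 and 27.5 CPM of Ccn2 and sorted CT2A cells 8.05, 9.46 and 6.06 CPM. Neurosphere-derived GL261 cells held 56.0, 28.6 and 79.2 CPM and neurosphere-derived CT2A cells 9.88, 8.49, 5.73, 14.8 and 5.91 CPM. Every GL261 library lay above every CT2A library in both settings, and the log2 fold changes were -2.33 (SE 0.28) and -2.64 (SE 0.37). Summed oligodendrocyte markers were also higher in GL261, at 505 to 980 against 244 to 361 CPM in sorted and 492 to 572 against 29.3 to 308 CPM in neurosphere-derived cells. Summed endothelial, macrophage, T cell and ependymal markers were higher in neurosphere-derived GL261 cells and overlapped in sorted cells. In neurosphere-derived cells endothelial markers stood at 185 to 247 against 35.0 to 108 CPM and macrophage markers at 4336 to 6949 against 451 to 2293 CPM. Ependymal and choroid plexus markers stood at 268 to 397 against 7.34 to 29.0 CPM there. Fibroblast and meningeal markers were higher in CT2A in both settings. The part of any of these cell types in the Ccn2 difference was not tested. In bulk tumors the lines overlapped, at 21.2, 29.5, 38.5 and 30.8 CPM in GL261 and 20.3, 16.2, 26.4 and 29.8 CPM in CT2A, with a log2 fold change of -0.30 (SE 0.22). A noncoding gene, Gm15270, shares 1667 bases with Ccn2 on the opposite strand. The labels and the methods name different kits for the sorted libraries, one of which marks strand, so reads of the pair may not be told apart. The same limit holds for Yap1, Tead1 and Wwtr1. Gm20416 shares 11167 bases with Yap1, 2310014F06Rik 764 with Tead1 and Gm16016 550 with Wwtr1, all on the opposite strand. These lengths are counted over whole loci, introns included.

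Ccn1, the other CCN readout of YAP and TAZ, did not run with Ccn2. Bulk tumors held 40.3, 39.2, 48.1 and 70.1 CPM of Ccn1 in GL261 and 71.4, 102, 72.5 and 55.1 CPM in CT2A, which overlap, with a log2 fold change of 0.68 (SE 0.26) that did not pass the threshold. Sorted GL261 cells held 817, 218, 224 and 396 CPM and sorted CT2A cells 365, 394 and 271 CPM. The 817 CPM belong to library 81, and the log2 fold change of -0.32 (SE 0.45) became 0.24 without it. Neurosphere-derived cells held 198, 263 and 351 CPM in GL261 and 501, 921, 690, 1335 and 430 CPM in CT2A, without overlap and with a log2 fold change of 1.48 (SE 0.38).

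Both genes can be set against each other within a library, which removes library scaling. The TPM of Ccn1 was 14.1 ± 10.4 times that of Ccn2 in sorted GL261 cells (SD, n = 4) and 53.0 ± 2.30 times in sorted CT2A cells (SD, n = 3). In neurosphere-derived cells the TPM ratio was 6.71 ± 3.33 in GL261 (SD, n = 3) and 102.3 ± 34.2 in CT2A (SD, n = 5). In both settings the lowest CT2A ratio, 50.4 and 53.4, stood above the highest GL261 ratio, 27.3 and 10.5. The 27.3 is that of library 81, and the other 3 sorted GL261 libraries ran from 5.08 to 17.4. In bulk tumors the TPM ratio ran from 1.53 to 2.73 in GL261 and from 1.94 to 7.67 in CT2A, and the lines overlapped.

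Ccn1 is also an immediate early gene, induced within minutes by serum and by handling of cells. It stood at 39.2 to 102 CPM in the bulk tumors and at 198 to 1335 CPM in the bead-selected cells. The summed level of 12 other immediate early genes was 580 to 770 CPM in GL261 bulk and 383 to 528 CPM in CT2A bulk tumors. In sorted adherent-line cells it was 2313 to 4673 CPM in GL261 and 1374 to 2092 CPM in CT2A, and in neurosphere-derived cells 4982 to 6057 and 3904 to 6580 CPM. The part of sorting and dissociation in the Ccn1 levels was not tested. Over the 23 libraries, the genes whose pattern lay closest to that of Ccn1 were Jun, Egr1 and Mrip-ps, a pseudogene, among 14906 genes with a mean of at least 1 CPM. Their root mean square differences from Ccn1 in centred log2(CPM + 1) were 0.50, 0.61 and 0.62, where Ccn1 itself deviated by 1.5 around its mean. Jun and Egr1 are immediate early transcription factors.

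By the same measure, Ccn2 lay close to Tgfb1i1 and Rflna, with differences of 0.38 and 0.44 against 1.02 for Ccn2 around its mean. Tgfb1i1 encodes HIC-5, a focal adhesion protein, and stood at a mean of 7.02 CPM in sorted GL261 and 1.18 CPM in sorted CT2A cells. Ccn4 lay closest to Kif26b, Unc5b and Col5a2, with differences of 0.83, 0.84 and 0.87 against 3.62 for Ccn4. Col5a2, a fibrillar collagen chain, had means of 2.93 CPM in sorted GL261 and 721 CPM in sorted CT2A cells, and Unc5b, a netrin receptor, 1.39 and 531 CPM. The 23 libraries share lines, sort and read length within groups, so these distances describe the group pattern and no more.

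Ccn3, a CCN protein of the nervous system among other tissues, did not separate the lines. In GL261 bulk tumors it stood at 5.87, 38.7, 19.9 and 13.1 CPM and in CT2A bulk tumors at 22.2, 1.95, 20.2 and 22.4 CPM. In sorted adherent-line cells it ran from 0.601 to 3.48 CPM in GL261 and from 1.49 to 2.38 CPM in CT2A, and in neurosphere-derived cells from 1.82 to 2.92 CPM and from 1.02 to 2.07 CPM. The lines overlapped in each setting, and the log2 fold changes of -0.08 (SE 0.71), 0.07 (SE 0.63) and -0.80 (SE 0.36) did not pass the threshold. Normal brain expresses Ccn3. The summed neuron markers of the bulk tumors were 353 to 4250 CPM in GL261 and 663 to 3492 CPM in CT2A. They were above the 106 to 268 CPM of the bead-selected cells. Their part in the Ccn3 level was not tested. 

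Ccn6 was close to its counting limit outside the GL261 bulk tumors, which held 10 to 30 reads a library. It had 67 reads over the 4 GL261 bulk tumors and 9 over the 4 CT2A bulk tumors. The ratio per depth of 0.53 had an exact 95% interval of 0.231 to 1.06. The 7 adherent-line and 8 neurosphere-derived sorted libraries held 1 or 2 reads per group, at most 0.156 CPM. With 3 reads taken as the limit that a count of 0 allows, a difference in Ccn6 was not detectable at this depth in the sorted and neurosphere-derived cells. Ccn6 shares 1573 bases with Tube1 on the opposite strand, which reached 16.4 CPM.

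The makeup of the family followed from these differences. Ccn1 gave 89.9 ± 6.29% of the summed CCN TPM in sorted GL261 cells (SD, n = 4) and 66.6 ± 2.7% in sorted CT2A cells (SD, n = 3). In sorted GL261 cells library 81 had the highest Ccn1 share, 96.4% of that sum, against 82.9 to 93.95% in the others. Ccn4 gave 0.0557 ± 0.0441% of it in sorted GL261 and 28.7 ± 4.23% in sorted CT2A cells. In bulk tumors the Ccn4 share was 0.560 ± 0.204% in GL261 and 32.9 ± 7.35% in CT2A (SD, n = 4 each). In neurosphere-derived cells it was 0.0988 ± 0.0445% in GL261 (SD, n = 3) and 12.9 ± 7.45% in CT2A (SD, n = 5). Among the CT2A groups the Ccn4 share was lowest in the neurosphere-derived cells, where Ccn1 was highest. Shares of 1 sum are not independent of each other.

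Of the coactivators, Wwtr1 separated the lines in all 3 settings and Yap1 in 1. Wwtr1 stood at 45.0, 40.6, 45.7 and 44.3 CPM in GL261 bulk tumors and at 248, 351, 199 and 186 CPM in CT2A bulk tumors. Sorted GL261 cells held 121, 43.8, 47.9 and 54.2 CPM and sorted CT2A cells 640, 630 and 696 CPM. Neurosphere-derived GL261 cells held 49.2, 43.7 and 43.4 CPM and neurosphere-derived CT2A cells 540, 699, 892, 502 and 563 CPM. No CT2A library overlapped a GL261 library, and the log2 fold changes were 2.56 (SE 0.24), 3.25 (SE 0.35) and 3.77 (SE 0.23). The 121 CPM are those of library 81, and the sorted value without it was 3.69.

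Yap1 stood at 111, 68.5, 105 and 108 CPM in GL261 bulk tumors and at 112, 124, 87.3 and 93.7 CPM in CT2A bulk tumors. Sorted cells held 260, 178, 165 and 194 CPM in GL261 and 187, 182 and 176 CPM in CT2A. The lines overlapped in both, with log2 fold changes of 0.15 (SE 0.23) and -0.19 (SE 0.17). The sorted value was -0.04 without library 81, which held the 260 CPM. In neurosphere-derived cells Yap1 was 136, 150 and 144 CPM in GL261 and 162, 197, 244, 187 and 184 CPM in CT2A, without overlap and with a log2 fold change of 0.39 (SE 0.14). That call was lost in 5 of 8 fits that left out 1 library, with an effective length offset (0.28) and in a fit of all 6 groups (0.40).

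Relative to each other, TAZ and YAP transcripts changed places between the lines. The TPM ratio of Wwtr1 to Yap1 was 0.378 ± 0.0808 in GL261 and 1.90 ± 0.369 in CT2A bulk tumors (SD, n = 4 each). In sorted cells it was 0.262 ± 0.0924 (SD, n = 4) and 3.01 ± 0.270 (SD, n = 3), and in neurosphere-derived cells 0.247 ± 0.0432 (SD, n = 3) and 2.69 ± 0.406 (SD, n = 5). In sorted GL261 cells library 81 had the highest ratio, 0.398, and the other 3 ran from 0.194 to 0.229. The ratio was below 1 in all 11 GL261 libraries, with a highest value of 0.498, and above 1 in all 12 CT2A libraries, with a lowest value of 1.56.

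**Figure D2:**
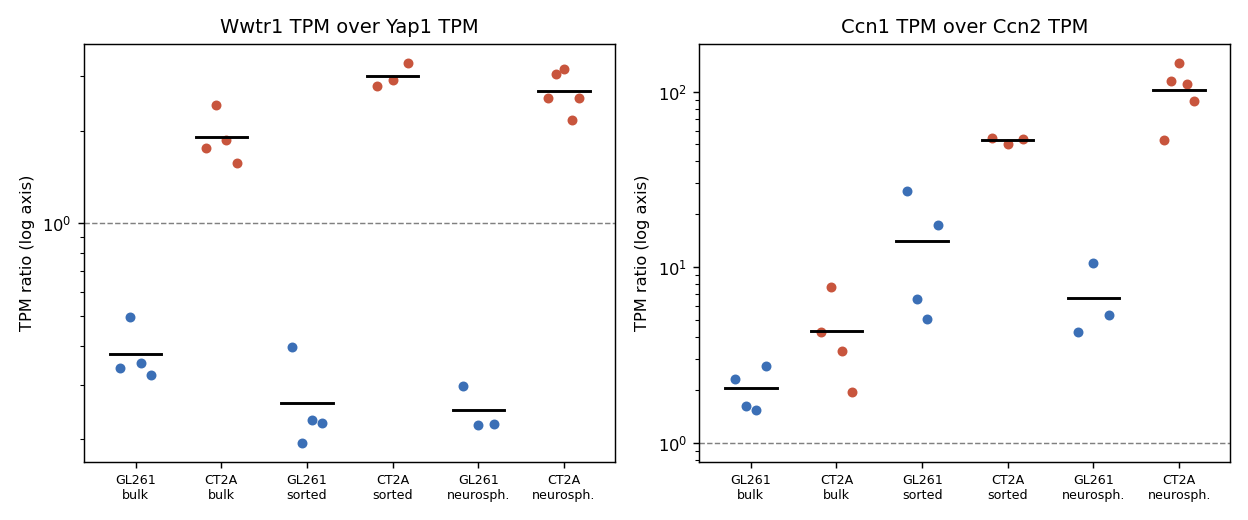
TPM of Wwtr1 over Yap1 (left) and of Ccn1 over Ccn2 (right) within each library, on log axes, with points for libraries, bars for group means and a dashed line at 1. The Wwtr1 ratio stays at or below 0.498 in GL261 and at or above 1.56 in CT2A, whereas the Ccn1 ratio overlaps between the lines in bulk tumors only.

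Tead1, the DNA-binding partner, was higher in CT2A, as Wwtr1 was. GL261 bulk tumors held 82.4, 54.4, 77.3 and 75.6 CPM and CT2A bulk tumors 392, 351, 224 and 212 CPM. Sorted cells held 94.6, 92.6, 103 and 106 CPM in GL261 and 506, 608 and 582 CPM in CT2A. Neurosphere-derived cells held 69.3, 82.3 and 73.3 CPM in GL261 and 521, 605, 448, 541 and 439 CPM in CT2A. The lines did not overlap, and the log2 fold changes were 2.09 (SE 0.29), 2.46 (SE 0.13) and 2.72 (SE 0.16). A pair of transcripts took nearly all Tead1 reads. The 9480-base form took 62.8 ± 2.73% of them in GL261 bulk and 69.9 ± 6.16% in CT2A bulk tumors (SD, n = 4 each), and the 9964-base form 33.4 ± 2.36% and 26.4 ± 5.81%. Yap1 reads were likewise split between a 4115-base form, with 55.6 ± 1.48% in GL261 bulk and 65.0 ± 9.39% in CT2A bulk tumors, and a 4171-base form with most of the rest.

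Ankrd1, an ankyrin repeat protein of the nucleus and a customary YAP/TAZ readout, was scarce everywhere. It stood at 0.341, 0.353, 0.312 and 0.321 CPM in GL261 bulk and at 3.54, 3.16, 3.08 and 1.94 CPM in CT2A bulk tumors, without overlap and with a log2 fold change of 3.20 (SE 0.32). Sorted GL261 cells held 5.41, 0.401, 1.24 and 1.78 CPM and sorted CT2A cells 3.59, 3.69 and 1.73 CPM, which overlap. The log2 fold change there was 0.40 (SE 0.74), and 1.32 without library 81, which held the 5.41 CPM. Neurosphere-derived cells held 0.364, 0.461 and 0.975 CPM in GL261 and 10.5, 4.13, 3.82, 7.49 and 4.58 CPM in CT2A, without overlap and with a log2 fold change of 3.29 (SE 0.54). From summed reads, 344 in CT2A against 15 in GL261, the ratio per depth in neurosphere-derived cells was 9.66 with an exact 95% interval of 5.78 to 17.5.

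Library 81 thus held the highest Ccn1, Yap1, Wwtr1 and Ankrd1 levels of the 4 sorted GL261 libraries, but not the highest Ccn2 or Tead1 level. It also had the lowest summed astrocyte markers of the group, 92.7 CPM against 221 to 515 CPM, and the lowest endothelial markers, 61.1 against 133 to 261 CPM. The part of host cells in these levels was not tested.

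**Figure D3:**
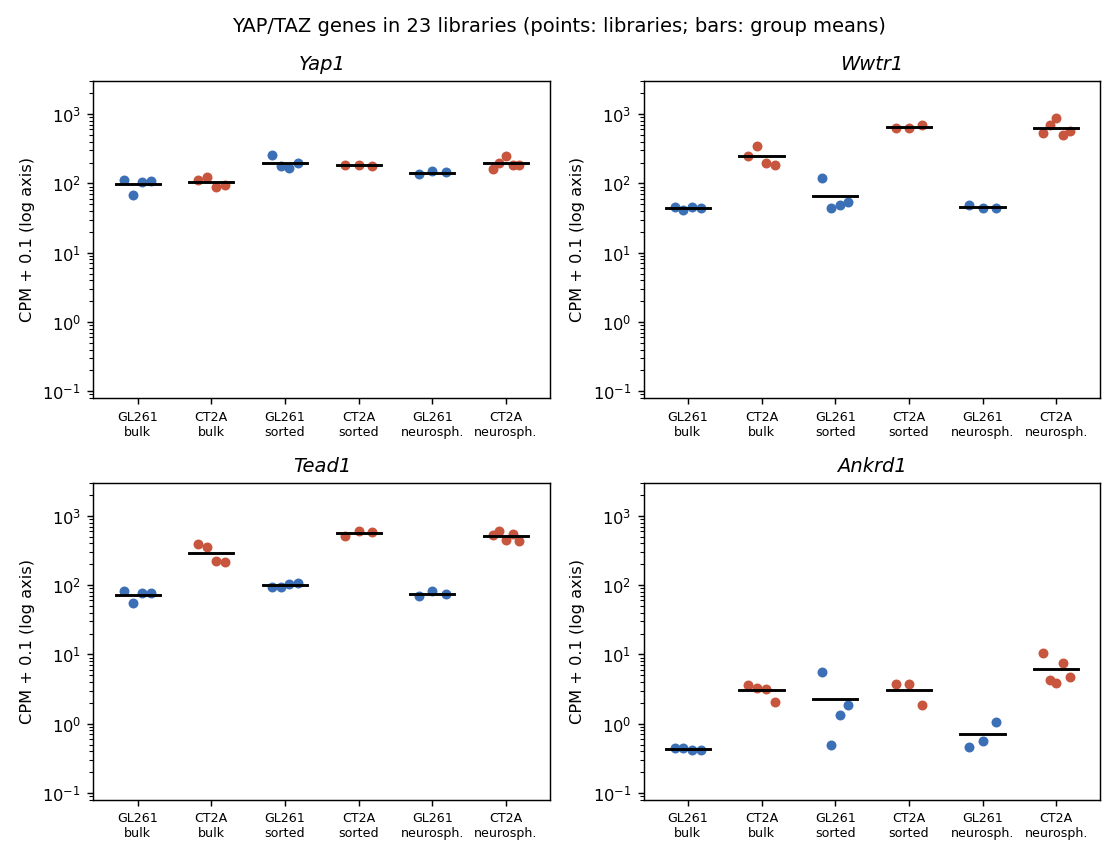
Levels of Yap1, Wwtr1, Tead1 and Ankrd1 in 23 libraries, in CPM + 0.1 on a log axis, with GL261 in blue and CT2A in red; each point is 1 library and each bar the group mean. Wwtr1 and Tead1 are higher in every CT2A library than in any GL261 library of the same setting, while Yap1 overlaps in bulk tumors and sorted cells.

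The order of the 10 genes by TPM differed with the line. In sorted GL261 cells Ccn1 led with 322 ± 178 TPM (SD, n = 4), followed by Yap1 with 79.8 ± 5.11 TPM, Ccn2, Wwtr1 and Tead1, where Ccn2 overlapped Wwtr1 and Wwtr1 overlapped Tead1. Library 81 held 567 TPM of Ccn1, and the other sorted GL261 libraries 188 to 337 TPM. In sorted CT2A cells Ccn1, with 284 ± 51.2 TPM (SD, n = 3), and Wwtr1, with 220 ± 15.1 TPM, overlapped. Ccn4 with 121 ± 7.04 TPM, Tead1 with 103 ± 9.78 TPM and Yap1 with 73.3 ± 1.81 TPM came next, with no overlap between any of them. Ccn2 fell to the seventh place there with 5.38 ± 1.15 TPM. In bulk tumors most neighbours overlapped, with Ccn1 (44.4 ± 13.8 TPM) and Yap1 (42.4 ± 9.78 TPM) leading in GL261 and Wwtr1 (96.7 ± 28.9 TPM) in CT2A (SD, n = 4 each). In neurosphere-derived CT2A cells Ccn1 alone led, with 606 ± 346 TPM (SD, n = 5).

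**Figure D4:**
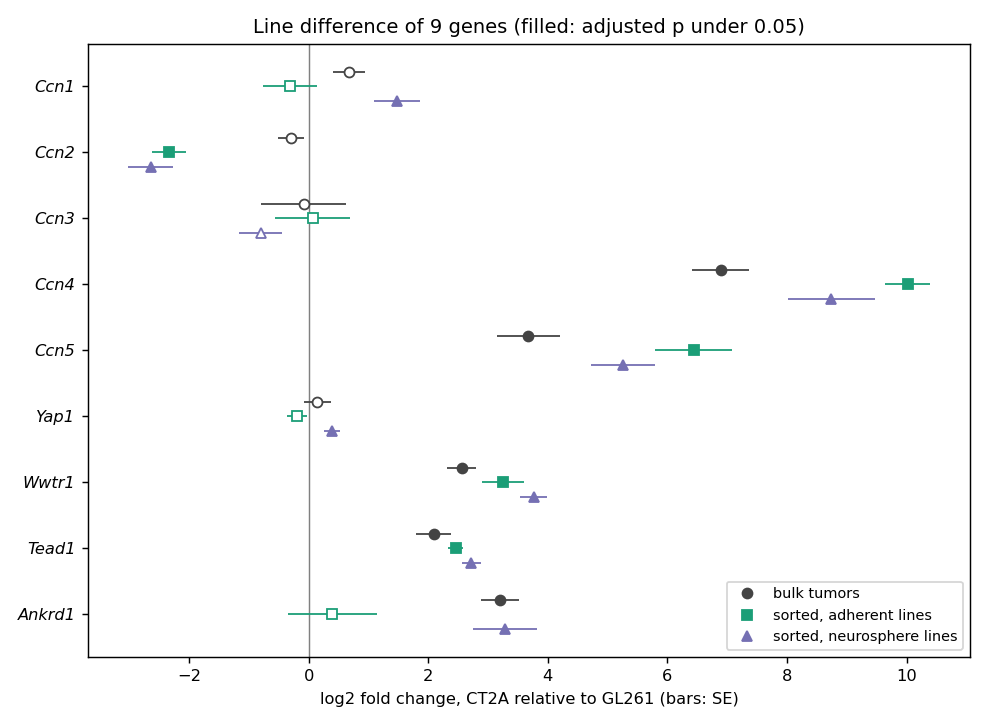
Log2 fold changes of 9 genes, CT2A relative to GL261, with SE bars, in bulk tumors (circles), sorted adherent-line cells (squares) and neurosphere-derived cells (triangles); filled symbols passed the threshold. Ccn4, Ccn5, Wwtr1 and Tead1 lie to the right in all 3 settings, and Ccn2 lies to the left with filled symbols in the bead-selected cells.

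Whether culture as neurospheres before implantation moved these genes was asked within each line. None of the 7 members tested in GL261 passed the threshold by edgeR, where 8.53% of all genes tested did. At an unadjusted p under 0.05 the count was 2, and by DESeq2 it was 1. None of the 9 members tested in CT2A passed either, where 0.167% of all genes did, with 2 at an unadjusted p under 0.05 and 1 by DESeq2. In GL261 without library 81, Tead1 passed the threshold with -0.41. Yap1 and Tead1 levels did not overlap in GL261, with log2 fold changes of -0.44 (SE 0.17) and -0.37 (SE 0.12) for neurosphere relative to adherent origin. The Yap1 value was -0.30 without library 81. Ccn1 and Ankrd1 levels did not overlap in CT2A, with log2 fold changes of 1.15 (SE 0.36) and 1.0 (SE 0.44). The share of all genes whose groups did not overlap was not counted, so nothing is read from these separations. Ccn4, Ccn5 and Ccn6 had too few reads in GL261 to be tested.

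The difference between the lines itself did not pass the threshold as differing between neurosphere and adherent origin for any of 9 members by edgeR, where 6.67% of all genes did. At an unadjusted p under 0.05 the count was 3 members, and by DESeq2 it was 2. The highest values were those of Ankrd1, 2.85 (SE 0.97), and Ccn1, 1.75 (SE 0.63), on the log2 scale. Both comparisons use the adherent GL261 cells, and the Ankrd1 value was 2.01 and the Ccn1 value 1.29 without library 81. Summed macrophage markers moved with culture in GL261, at 164 to 923 CPM in adherent-line and 4336 to 6949 CPM in neurosphere-derived cells. They stood at 451 to 2293 CPM in neurosphere-derived CT2A cells. GL261 bulk tumors stood at 697 to 1014 CPM, below the neurosphere-derived GL261 cells, although those had been selected with beads. The part of macrophages in these differences was not tested.

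Among the other TEAD factors, which bind the same core as Tead1, Tead2 and Tead3 rose in CT2A as Tead1 did. Tead2 had a mean of 39.1 CPM (32.3 to 51.6) in sorted GL261 and 201 CPM (193 to 206) in sorted CT2A cells, with log2 fold changes of 2.33, 2.31 and 3.31 in bulk, sorted and neurosphere-derived material (edgeR adjusted p = 0.00823, 1.73e-05 and 3.69e-07). Tead3 had log2 fold changes of 1.78, 2.53 and 2.81 (edgeR adjusted p = 0.00368, 1.59e-05 and 9.97e-06). Tead4 fell in sorted cells, with a log2 fold change of -1.52 (edgeR adjusted p = 0.00409), and in neurosphere-derived cells, with -1.04 (edgeR adjusted p = 0.0378), whereas its bulk value of -0.97 did not pass (edgeR adjusted p = 0.245). Tead1 gave 18.9 to 35.6% of the summed TEAD TPM over all libraries, and Tead2 was the most abundant TEAD by TPM in every group mean. In sorted CT2A cells Tead2 stood at 204 ± 18.3 TPM and Tead1 at 103 ± 9.78 TPM (SD, n = 3).

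The VGLL cofactors compete with YAP and TAZ for TEAD. Vgll3 fell in CT2A, from a mean of 31.4 CPM (21.9 to 39.2) to 2.15 CPM (1.86 to 2.31) in sorted cells, with log2 fold changes of -2.68, -3.91 and -3.26 in the 3 settings (edgeR adjusted p = 0.00511, 1.22e-05 and 1.79e-05). Vgll4 did not pass the threshold in any of them, with log2 fold changes of 0.16, 0.19 and 0.29 (edgeR adjusted p = 0.624, 0.349 and 0.291). Vgll1 had no reads in any library and Vgll2 too few to be tested. The line difference of Tead2 was larger after neurosphere culture, by 0.96 on the log2 scale (interaction, edgeR adjusted p = 0.0231). That call was lost in the fit of all 6 groups, without CT2A sorted library 71 and without GL261 neurosphere library 89.

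The Hippo kinases hold YAP and TAZ in the cytoplasm, and some of their regulators, such as Ajuba and Limd1, restrain the kinases. Of 22 Hippo kinases and regulators, 3 were higher and 3 lower in CT2A bulk tumors, 6 and 3 in sorted cells and 10 and 5 in neurosphere-derived cells. Of all genes tested, 11.4% were higher and 11.9% lower in bulk tumors, 24% and 26.8% in sorted cells and 30.0% and 29.6% in neurosphere-derived cells, which is the background for this and each following list. The bulk count of 6 was 2 without GL261 library 414 and 3 without CT2A library 39, 40 or 47. The median log2 fold changes of the list were 0.02, 0.04 and 0.28, against -0.05, -0.01 and 0.03 for all genes tested. Amotl1, an angiomotin that tethers YAP, rose from a mean of 81.9 CPM (65.4 to 91.8) in GL261 to 270 CPM (237 to 289) in CT2A sorted cells, with a log2 fold change of 1.67 (SE 0.15, edgeR adjusted p = 4.35e-05). Its paralog Amotl2, itself a YAP/TAZ target, fell from 240 CPM (180 to 368) to 37.0 CPM (31.0 to 44.7), with a log2 fold change of -2.75 (SE 0.29, edgeR adjusted p = 1.18e-04). Lats2, a core kinase and also a target, fell in sorted cells with a log2 fold change of -0.99 (edgeR adjusted p = 0.00434), and Lats2 passed in the other 2 settings too, at -0.52 and -0.79. Ptpn14, a phosphatase that binds YAP, fell in sorted cells, with -1.37 (edgeR adjusted p = 2.36e-04).

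Among 19 other YAP/TAZ target genes, of which Amotl2, Lats2 and Ptpn14 are also in the Hippo list, calls were made in both directions. In bulk tumors 7 were higher in CT2A and 4 lower, in sorted cells 10 and 7, and in neurosphere-derived cells 10 and 9. The median log2 fold changes were 0.23, 0.96 and 0.68, against -0.05, -0.01 and 0.03 for all genes tested. In all 3 settings the same 7 were higher, namely Myof, Igfbp3, Fjx1, Ccdc80, Nt5e, Tgfb2 and Rbms3, and the same 4 were lower, namely Amotl2, Lats2, Asap1 and F3. No target was called higher in 1 setting and lower in another. The 3 line comparisons share no library, but they rest on the same parent lines. The share of all genes called alike in all 3 settings was not counted, so nothing is read from this agreement. The list, like the others, was chosen with earlier results of these data known, so its adjusted p-values are a description.

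Igfbp3, a secreted binding protein of insulin-like growth factors, rose from a mean of 27.7 CPM (18.8 to 36.0) in GL261 to 1001 CPM (926 to 1124) in CT2A sorted cells, with a log2 fold change of 5.13 (SE 0.24, edgeR adjusted p = 2.11e-06). Ccdc80, a matrix protein, rose there from 0.619 CPM (0.0939 to 1.24) to 37.1 CPM (31.5 to 40.1), with 5.88 (SE 0.48, edgeR adjusted p = 2.73e-05). Few reads lie behind the GL261 side of the Ccdc80 value. Myof, a membrane repair protein, rose from 60.7 CPM (47.5 to 70.8) to 492 CPM (440 to 524), with 2.96 (SE 0.17, edgeR adjusted p = 4.45e-06). Tgfb2, a TGF-beta ligand, had log2 fold changes of 2.35 in bulk tumors and 3.11 in neurosphere-derived cells (edgeR adjusted p = 3.88e-04 and 4.06e-06). On the other side F3, the gene of tissue factor, fell from 163 CPM (134 to 198) to 32.7 CPM (29.2 to 35.6) in sorted cells, with -2.37 (SE 0.17, edgeR adjusted p = 1.35e-05). Asap1, an ARF GTPase-activating protein, fell there with -1.16 (edgeR adjusted p = 1.77e-04).

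**Figure D5:**
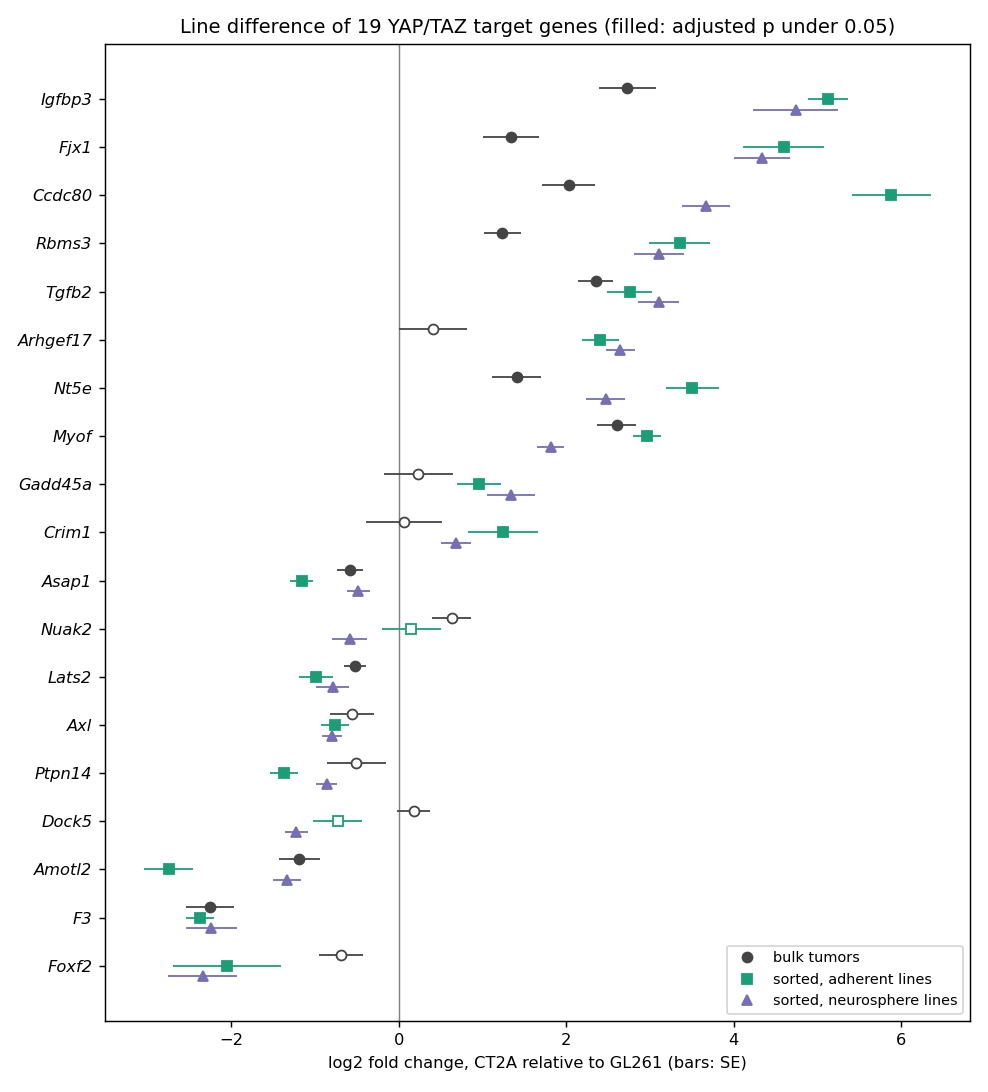
Log2 fold changes of 19 YAP/TAZ target genes outside the 10 members, CT2A relative to GL261, with SE bars, ordered by the neurosphere-derived value; symbols as in the plot of the 9 members. Of the targets, 10 lie to the right and 9 to the left with filled triangles, and Igfbp3 and Fjx1 stand at the top.

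By culture, 1 target was higher and 1 lower in neurosphere-derived than in adherent-line GL261 cells, Myof with 1.16 (edgeR adjusted p = 0.00861) and Ptpn14 with -0.84 (edgeR adjusted p = 0.0165), where 8.53% of all genes tested were called. The count of 2 fell to 1, Ptpn14 being lost, without GL261 neurosphere library 89 or 90, and was 4 by DESeq2 and 6 in the fit of all 6 groups. The line difference of Myof was smaller after neurosphere culture, by -1.19 on the log2 scale (interaction, edgeR adjusted p = 0.00947), as was that of Ccdc80, by -2.25 (edgeR adjusted p = 0.0231). The Ccdc80 value rests on few reads in sorted GL261 cells. Amotl2 differed by 1.37 (edgeR adjusted p = 0.0235), its fall being smaller in neurosphere-derived cells. These 3 calls, where 6.67% of all genes were called, fell to 1 without CT2A sorted library 71 or GL261 neurosphere library 89, and rose to 5 without library 81.

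CCN proteins bind integrins, a syndecan and LRP receptors. Of 9 tested, 4 were higher in bulk tumors and the other 5 did not pass, and 4 were higher and 1 lower in sorted cells and 4 and 2 in neurosphere-derived cells. Itgb5, an integrin chain, rose from a mean of 63.2 CPM (21.0 to 88.5) to 427 CPM (399 to 468) in sorted cells, with a log2 fold change of 2.7 (SE 0.41, edgeR adjusted p = 8.24e-04). Itga5, the fibronectin receptor chain, rose with 1.74, 1.75 and 0.84 in the 3 settings (edgeR adjusted p = 0.00186, 9.45e-05 and 0.0108). Lrp1, a scavenger receptor that CCN2 binds, rose with 1.15, 1.90 and 0.67 (edgeR adjusted p = 0.0187, 0.00341 and 0.022). Lrp6, a WNT coreceptor, fell in sorted cells with -0.88 (edgeR adjusted p = 4.60e-04) and in neurosphere-derived cells with -0.83 (edgeR adjusted p = 2.27e-04).

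Since Ccn4 is known as a WNT target, 12 other WNT target genes were followed. In bulk tumors CT2A had 3 of the 10 tested higher and 2 lower, of 8 in sorted cells 3 and 3, and of 8 in neurosphere-derived cells 4 and 2. Without GL261 neurosphere library 91 the last count fell from 6 to 3 in either direction. The WNT-responsive transcription factor genes Lef1 and Tcf7 rose in sorted cells, with log2 fold changes of 4.25 and 2.43 (edgeR adjusted p = 8.77e-06 and 2.03e-04), as did the WNT antagonist gene Apcdd1, with 4.58 (edgeR adjusted p = 1.97e-05). Axin2, a widely used WNT readout, fell there from 21.6 CPM (15.7 to 29.1) to 10.9 CPM (10.3 to 11.8), with -1.05 (SE 0.24, edgeR adjusted p = 0.0065). Rnf43, a feedback ubiquitin ligase, fell with -3.07 (edgeR adjusted p = 0.00246).

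Of 7 TGF-beta target genes, a pathway that also induces Ccn2, 5 were higher in bulk tumors and 2 did not pass, 5 of 6 tested were higher in sorted cells, and 4 were higher and 1 lower in neurosphere-derived cells. The bulk count was 3 without GL261 library 414 or any of CT2A libraries 39, 40, 47 and 48. Pmepa1, a feedback inhibitor, rose from 68.2 CPM (50.7 to 77.1) to 493 CPM (473 to 503) in sorted cells, with a log2 fold change of 2.80 (SE 0.17, edgeR adjusted p = 6.54e-06), in cells where Ccn2 was lower. Smad7, the inhibitory SMAD, rose with 1.86 (edgeR adjusted p = 2.36e-04). Tgfbi, a secreted matrix protein, fell in neurosphere-derived cells, with -2.72 (edgeR adjusted p = 3.79e-04), where the summed macrophage markers were also lower in CT2A. The part of macrophages in the Tgfbi value was not tested.

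Of 12 immediate early genes, 3 were lower in CT2A bulk tumors and 8 in sorted cells while the others did not pass, and 3 were higher and 6 lower in neurosphere-derived cells. The 3 that rose in neurosphere-derived CT2A cells were Jun, Egr1 and Ier2, with log2 fold changes of 1.06, 1.17 and 1.03 (edgeR adjusted p = 0.00146, 0.00243 and 0.00252), the setting in which Ccn1 was also higher. Nr4a1, a nuclear receptor gene, fell in all 3 settings, with -3.71 in sorted cells (edgeR adjusted p = 2.51e-05).

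Markers of mesenchymal cell types, which also express CCN genes, moved with the line. The paper reports mesenchymal differentiation of CT2A tumors, so these lists do not by themselves tell host cells from implanted cells. The summed level of 7 fibroblast and meningeal markers was 73.0 to 222 CPM in GL261 and 491 to 1581 CPM in CT2A bulk tumors. In sorted cells it was 76.0 to 138 CPM in GL261 and 688 to 1283 CPM in CT2A, with the meningeal transporter gene Slc22a6 at 0 in sorted GL261 cells. In neurosphere-derived cells it was 69.7 to 303 CPM and 562 to 1033 CPM. The summed pericyte and smooth muscle markers were 136 to 180 CPM and 308 to 413 CPM in bulk tumors and 343 to 478 CPM and 599 to 705 CPM in sorted cells. They overlapped in neurosphere-derived cells at 359 to 445 CPM and 207 to 671 CPM. Of these 9 markers, 8 reached a mean of 1 CPM in GL261 against 6 in CT2A, in sorted and in neurosphere-derived cells. Cnn1 was at 0 in neurosphere-derived CT2A cells. Of the 7 fibroblast and meningeal markers, 4 reached it in sorted GL261 and 6 in sorted CT2A cells, and 5 in each neurosphere-derived group. Ccn4, Ccn5, Wwtr1 and Tead1 were higher in CT2A beside both marker lists in bulk and sorted material. The bead selection is meant to remove host cells from sorted material. Yet summed macrophage markers stood at 639 to 1299 CPM in sorted CT2A cells and at 619 to 1056 CPM in CT2A bulk tumors. Endothelial markers stood at 61.1 to 261 CPM in sorted GL261 cells and at 155 to 189 CPM in GL261 bulk tumors. Neuron and astrocyte markers were lower in the sorted cells of both lines than in bulk tumors. Sorted material can thus not be taken as free of host cells. The part of mesenchymal host cells was not tested.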

How the data were processed

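RNA from 23 tumor or sorted-cell libraries was measured by paired-end sequencing. The authors deposited transcript tables made with Salmon, which hold estimated counts and TPM, and, for bulk and adherent-line libraries, gene tables of expected counts made with STAR 2.7.7a and RSEM 1.3.3. The submitters' notes also name DESeq2 1.30.1. The build was GRCm38. Salmon estimated counts were summed over 116546 transcripts to 35576 genes and rounded. Transcripts without a gene, 180 in number, held 0.0413 to 0.152% of reads and were left out.

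Groups came from the labels. Each comparison was fitted with edgeR 4.0.16 (R 4.3.3; TMM, robust quasi-likelihood test, Benjamini-Hochberg adjustment at 0.05) on its own groups, over genes with a mean normalized count above 10. SE is the absolute log2 fold change over the square root of F. DESeq2 1.42.0, its size factors, other count minimums, RSEM counts, an effective length offset, a joint fit and each library left out were tried. Scripts were tested on simulated data. The labels do not say whether every library is a separate animal, so p-values measure the spread between these libraries. No pair of replicates agreed within counting noise (lowest chi-square per gene 5.92).

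The members and lists were chosen with earlier results of these data known. Named genes were all members, all other TEAD and VGLL genes, genes of each list past the threshold with the smallest p (up to 4 in each direction, some left out for length) and the 3 nearest patterns of Ccn1, Ccn2 and Ccn4. Some items that this rule or the design would name are not reported here. Genes named for the culture comparisons and the interaction were chosen after their values were seen.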

Additional observations from a re-analysis of the deposited data

Results flagged for a closer look

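Of 40 combinations of a member and a group of 4 or 5 libraries, 6 held a library far from the rest by Dixon's criterion. For continuous, normally spread values chance meets that criterion in about 1 of 20. Ccn3 was lowest in CT2A bulk library 40, at 1.95 CPM. Yap1 was lowest in GL261 bulk library 412, at 68.5 CPM. Wwtr1 was highest in GL261 sorted library 81, at 121 CPM (120.5 before rounding). Ccn6 was highest in GL261 bulk library 405 at 0.73 CPM (30 reads). It was also highest in GL261 sorted library 83 at 0.124 CPM and in CT2A neurosphere library 58 at 0.156 CPM, levels of 1 and 2 reads. All other libraries of those groups held 0 reads of Ccn6. The criterion was therefore bound to flag them, and the rate does not apply there.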

How the results depend on the processing

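No paired analysis was possible because the groups share no replicate numbers. Of the member log2 fold changes under the alternatives, 764 kept their direction and side of the threshold, 8 newly passed it, 7 no longer passed it and 13 changed sign. The cause of these changes was not tested. By DESeq2, 1873 genes and 1 member passed for culture in GL261 (1167 and 0 by edgeR), 302 and 1 in CT2A (22 and 0), and 1546 and 2 for the interaction (922 and 0). For CT2A culture, DESeq2 size factors gave 45 genes, no minimum count 87, filterByExpr 40 and a fit of all 6 groups 58, and that joint fit gave 1 member for the interaction. RSEM counts turned Ccn3 in sorted cells to -0.10.

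Leaving out 1 library gave 2474 to 4777 genes in bulk tumors (2558 without GL261 414, 2474 without CT2A 39, 2557 without CT2A 40). Culture in GL261 gave 307 to 2435 genes and 0 to 1 members (2435 without sorted 81, 759 without 82, 408 without 84, and 307, 453 and 776 without neurosphere 89, 90 and 91). Culture in CT2A gave 0 to 191 genes (0 without sorted 70 or 71 or neurosphere 57, 12 without 58, 191 without 60, 8 without 61). The interaction gave 261 to 1267 genes and 0 to 1 members (266 without CT2A sorted 71, 261 and 457 without GL261 neurosphere 89 and 90, 613 without CT2A neurosphere 57), the member being Ankrd1 without GL261 sorted 82. Member log2 fold changes that crossed 0 ran, in bulk tumors, from -0.37 to 0.41 for Ccn3 and from -0.0273 to 0.26 for Yap1. In sorted cells they ran from -0.53 to 0.24 for Ccn1 and from -0.22 to 0.69 for Ccn3. For culture in CT2A they ran from -0.11 to 0.31 for Ccn2 and from -0.0162 to 0.12 for Yap1, and for the interaction from -0.62 to 0.0001293 for Ccn2 and from -1.73 to 0.36 for Ccn4. Ccn1 in bulk tumors passed the threshold without GL261 417 (0.91). Depth limits Ccn4 and Ccn5 in bead-selected GL261 cells and Ccn6 in all groups but the GL261 bulk tumors.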
